A study of Mus musculus with 10 samples.

Results

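The genes described here encode 10 enzymes that make serine and carry its one-carbon unit on folate, namely Phgdh, Psat1, Psph, Shmt1, Shmt2, Mthfd1, Mthfd1l, Mthfd2, Aldh1l1 and Aldh1l2. They were chosen by gene symbol, and each matched 1 of the 33212 rows of the count table. The libraries came from αTC1 cells, a mouse line established from a glucagon-producing islet adenoma that arose in mice carrying a viral T antigen transgene under a glucagon promoter. Cells in low-glucose medium received either 10 μM enzalutamide, an antiandrogen drug, or the solvent DMSO, in both cases for 48 h, and polyadenylated RNA was sequenced from 5 libraries of each group. Nothing else distinguished the groups in the labels. The series title sets the experiment within work on metabolism and the conversion of α cells to β cells.

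Cells build serine from the glycolytic intermediate 3-phosphoglycerate through Phgdh, Psat1 and Psph in turn. Serine hydroxymethyltransferase, cytosolic as Shmt1 and mitochondrial as Shmt2, then splits serine into glycine and a one-carbon unit bound to tetrahydrofolate. In mitochondria that unit is oxidised by Mthfd2 and released as formate by Mthfd1l or as carbon dioxide by Aldh1l2, whereas in the cytosol the trifunctional Mthfd1 recharges folate from formate for purine and thymidylate synthesis and Aldh1l1 carries out the oxidation. Some genes of the serine synthesis and mitochondrial folate routes are known targets of ATF4 in several mammalian cell types. ATF4 is a transcription factor of amino acid stress. Whether it acts on the members in these cells was not tested.

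Library totals ran from 59557697 to 68603842 counts. A gene with no count in a library could still have stood for 3 counts, or 0.0439 to 0.0497 CPM by library (CPM is the count scaled to a common library size, and the limit covers counting error only). Of 8 α cell markers 7 were detected, led by Gcg, the glucagon gene, and Gc had 0 counts in every library. Of 6 β cell markers 4 had counts, with Ins1 and Pdx1 at 0 and a sum of at most 2.84 CPM in any library. Of 3 δ cell markers the hormone Sst was at 0, and the sum came almost wholly from Rbp4, a retinol carrier gene (1232 ± 38.1 CPM without and 1335 ± 85.7 CPM with the drug, adjusted p = 0.0223). The pancreatic polypeptide gene Ppy and the leukocyte gene Ptprc were at 0, while the macrophage gene Cd68 had 0.818 ± 0.379 and 0.816 ± 0.145 CPM. The summed α cell markers lay between 19240 and 20490 CPM in DMSO and between 11280 and 12570 CPM in enzalutamide, and the 3 fibroblast markers summed to between 5.62 and 6.54 CPM and between 7.23 and 9.19 CPM. Gcg carried most of the α cell sum (15269 ± 440 and 8466 ± 389 CPM), and Pcsk2 and Irx2 did not pass, with log2 fold changes of 0.029 and 0.0090. Pdgfra carried nearly all of the fibroblast sum (5.99 ± 0.36 and 7.75 ± 0.494 CPM), as Col1a1 and Col3a1 had too few counts to test. The part of either difference in the results was not tested. In bulk RNA, fewer cells of one kind and less RNA per cell cannot be told apart.

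In enzalutamide the 3 serine synthesis genes and 3 of the 4 mitochondrial folate genes rose, while the cytosolic folate genes fell or did not pass the test. In the quasi-likelihood test of edgeR, with p-values adjusted over all 14156 genes tested (Benjamini-Hochberg), 6 of the 10 members rose, 2 fell and 2 did not pass at an adjusted p under 0.05. Over all genes tested, 19% were higher and 18.8% lower by the same rule. All 10 members passed the filter on low counts, with a median log2 fold change of 0.64 beside 0.0067 over all genes. The groups did not overlap for 6 members that were higher and 2 that were lower, where 13.1% of all genes were higher and 13.7% lower without overlap. The members were chosen with earlier results of these data known, so these comparisons with all genes are a description only. Apart from Aldh1l1, the coefficient of variation between libraries of 1 group was at most 6.9%. Log2 fold changes are signed so that positive values are higher in enzalutamide, and every ± is the SD over 5 libraries.

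All 3 genes of the serine synthesis route rose, Phgdh and Psph nearly doubling and Psat1 rising less. Phgdh (ENSMUSG00000053398; chromosome 3, 98313170 to 98339990, GRCm38/mm10), whose product takes the first, NAD-dependent step, was at 146, 153, 156, 150 and 141 CPM in DMSO libraries 1 to 5 and at 294, 309, 290, 284 and 268 CPM in enzalutamide libraries 1 to 5. Every enzalutamide library was above every DMSO library, and the log2 fold change was 0.95 (SE 0.0385, adjusted p = 5.31e-12). GENCODE lists 18 further transcribed loci or processed pseudogenes that match the Phgdh transcript on the same strand at 90% identity or more over at least 200 bases. Reads of this gene could thus be divided among copies, which were not analysed here. By the same rule Psat1 matches the processed pseudogene Gm12611 (1059 bases, 90.7% identity) and Shmt2 matches Gm15544 (232 bases, 90.1%), likewise not analysed.

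Psat1 (ENSMUSG00000024640; chromosome 19, 15904678 to 15947337), the transaminase of the route, was at 296, 297, 301, 305 and 285 CPM in DMSO and at 383, 391, 379, 394 and 360 CPM in enzalutamide. The groups did not overlap, although the rise was the smallest among the 6 members that rose (1.28-fold, log2 fold change 0.36, SE 0.031, adjusted p = 8.87e-08). Psph (ENSMUSG00000029446; chromosome 5, 129765558 to 129787449), the phosphatase that releases serine, was at 36.5, 31, 36.6, 36.8 and 35.6 CPM in DMSO and at 70.1, 71.6, 71.4, 64.6 and 63.6 CPM in enzalutamide. Again no enzalutamide value reached down to the DMSO range, with DMSO library 2 below the other 4 of its group (log2 fold change 0.95, SE 0.0535, adjusted p = 4.2e-10). The exons of Psph share 452 bases with Cct6a, a chaperonin subunit gene on the opposite strand, and the strand setting of the counting is not given in the sources used here. Cct6a fell from 351 ± 12.7 to 285 ± 11.1 CPM, the opposite direction to Psph.

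**Figure D1:**
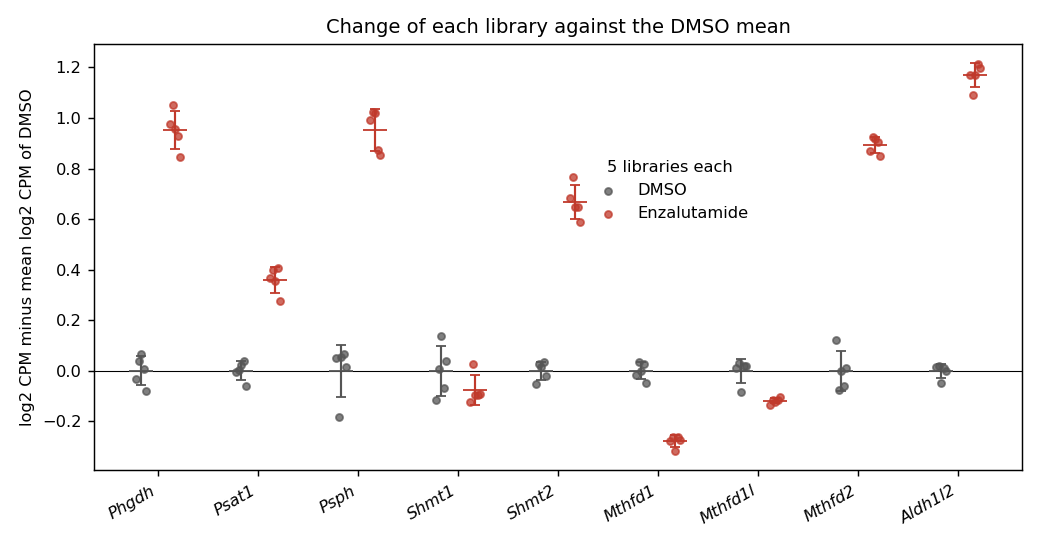
Log2 CPM of each library minus the mean log2 CPM of the DMSO libraries, for 9 members (Aldh1l1, near 1 CPM, is left out); grey points are DMSO and red points enzalutamide libraries, and bars are the mean and SD of 5 libraries. Phgdh, Psat1, Psph, Shmt2, Mthfd2 and Aldh1l2 lie above the DMSO points in all 5 enzalutamide libraries, Mthfd1 and Mthfd1l lie below them, and Shmt1 overlaps them.

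At the serine to glycine step the mitochondrial gene rose and the cytosolic gene did not pass. Shmt2 (ENSMUSG00000025403; chromosome 10, 127517123 to 127522444) was at 177, 188, 186, 189 and 182 CPM in DMSO and at 296, 314, 289, 289 and 277 CPM in enzalutamide. The groups were fully apart (1.59-fold; log2 fold change 0.67, SE 0.0343, adjusted p = 1.29e-10). Shmt1 (ENSMUSG00000020534; chromosome 11, 60788104 to 60811718) was at 42.4, 46.2, 50.6, 43.9 and 47.3 CPM in DMSO and at 42.2, 46.9, 43, 43.1 and 43.1 CPM in enzalutamide. Its groups overlapped, and the 95% interval of its log2 fold change ran from -0.18 to 0.029 (log2 fold change -0.078, adjusted p = 0.254). Shmt1 shares 184 exonic bases with Smcr8, a gene on the opposite strand that rose from 57.3 ± 3.4 to 67.7 ± 4.42 CPM.

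The genes that convert the folate-bound unit moved in different directions, also within mitochondria. Mthfd2 (ENSMUSG00000005667; chromosome 6, 83305691 to 83325908), the mitochondrial dehydrogenase and cyclohydrolase that is typical of embryonic and transformed cells, was at 182, 158, 167, 160 and 169 CPM in DMSO and at 306, 317, 315, 313 and 301 CPM in enzalutamide. The lowest enzalutamide library was far above the highest DMSO library (1.86-fold; log2 fold change 0.89, SE 0.0363, adjusted p = 5.65e-12). Mthfd1l (ENSMUSG00000040675; chromosome 10, 3973118 to 4167081), the mitochondrial synthetase that releases formate, was at 91.3, 92.6, 85.4, 91.9 and 91.9 CPM in DMSO and at 82.6, 83.6, 83.3, 83.5 and 84.3 CPM in enzalutamide.

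Mthfd1l was thus lower in all 5 treated libraries by a small margin (log2 fold change -0.12, SE 0.0329, adjusted p = 0.00824), and DMSO library 3 came closest to them. The adjusted p of Mthfd1l became 0.0534 when libraries were scaled to total counts alone. The 95% interval of the log2 fold change was -0.19 to -0.049 for Mthfd1l and 0.82 to 0.97 for Mthfd2. Mthfd1 (ENSMUSG00000021048; chromosome 12, 76255298 to 76319803), the cytosolic enzyme with all 3 folate-converting activities, was at 248, 258, 251.5, 256 and 243 CPM in DMSO and at 207, 210, 202, 209 and 208 CPM in enzalutamide. Its groups did not overlap, and the fall was larger than that of Mthfd1l in the point estimates (log2 fold change -0.28, SE 0.0279, adjusted p = 5.43e-07).

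The mitochondrial 10-formyltetrahydrofolate dehydrogenase gene had the largest rise of the members. Aldh1l2 (ENSMUSG00000020256; chromosome 10, 83487450 to 83534140), whose product yields NADPH and carbon dioxide, was at 183, 184, 176, 183 and 182 CPM in DMSO and at 409, 387, 409, 422 and 416 CPM in enzalutamide. The groups were fully apart (2.25-fold, adjusted p = 1.31e-14), and 1.13% of all genes tested had a larger rise. Aldh1l2 shares 1056 exonic bases with D10Wsu102e on the opposite strand, which went the other way, from 58.9 ± 2.82 to 51.5 ± 2.45 CPM (adjusted p = 0.00263). The cytosolic counterpart Aldh1l1 (ENSMUSG00000030088; chromosome 6, 90486427 to 90600203) was barely detected, with 18, 35, 58, 20 and 34 counts in DMSO and 45, 33, 95, 43 and 35 counts in enzalutamide. These counts overlapped between groups, and the interval of its log2 fold change, -0.21 to 1.43, covers both no change and a rise as large as that of Aldh1l2 (log2 fold change 0.61, adjusted p = 0.24).

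Each mitochondrial gene was then set against its cytosolic counterpart within the same library, a ratio that does not depend on how libraries are scaled. The count ratio of Shmt2 to Shmt1 was 4.19, 4.05, 3.68, 4.3 and 3.84 in DMSO and 7.01, 6.7, 6.72, 6.7 and 6.43 in enzalutamide, a 1.67-fold higher ratio. That of Mthfd2 to Mthfd1 was 0.732, 0.615, 0.665, 0.626 and 0.693 in DMSO and 1.47, 1.51, 1.56, 1.49 and 1.44 in enzalutamide. Mthfd2 counts were thus below Mthfd1 counts in every DMSO library and above them in every enzalutamide library. These counts are not corrected for gene length. Per kilobase of exon, Mthfd2 was also below Mthfd1 in DMSO, at 48 and 56.6 CPM. Per kilobase of the longest coding transcript it was already above Mthfd1 in DMSO, at 80.2 and 77.6 CPM. The ratio of Mthfd1l to Mthfd1 was 0.361 ± 0.014 in DMSO and 0.403 ± 0.00632 in enzalutamide. This ratio was higher although Mthfd1l itself was lower, as Mthfd1 was lower by more.

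For these 3 pairs the groups did not overlap (exact two-sided permutation test of log2 ratios, p = 0.00794 each, the smallest that 5 against 5 libraries can give; 0.0106 adjusted over 4 pairs). The mean log2 ratio differed by 0.74 for Shmt2 to Shmt1, by 1.17 for Mthfd2 to Mthfd1 and by 0.16 for Mthfd1l to Mthfd1. The ratios of Mthfd2 and of Mthfd1l share Mthfd1, which was itself lower, so their results are not independent. The ratio of Aldh1l2 to Aldh1l1 ran from 204 to 652 in DMSO and from 294 to 788 in enzalutamide. It did not pass (log2 difference 0.55, exact permutation p = 0.206, 0.206 adjusted over 4 pairs), and Aldh1l1 had at most 95 counts in any library. The difference ran from 0.31 without DMSO library 3 to 0.79 without enzalutamide library 3, with exact permutation p of 0.413 and 0.0635.

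**Figure D2:**
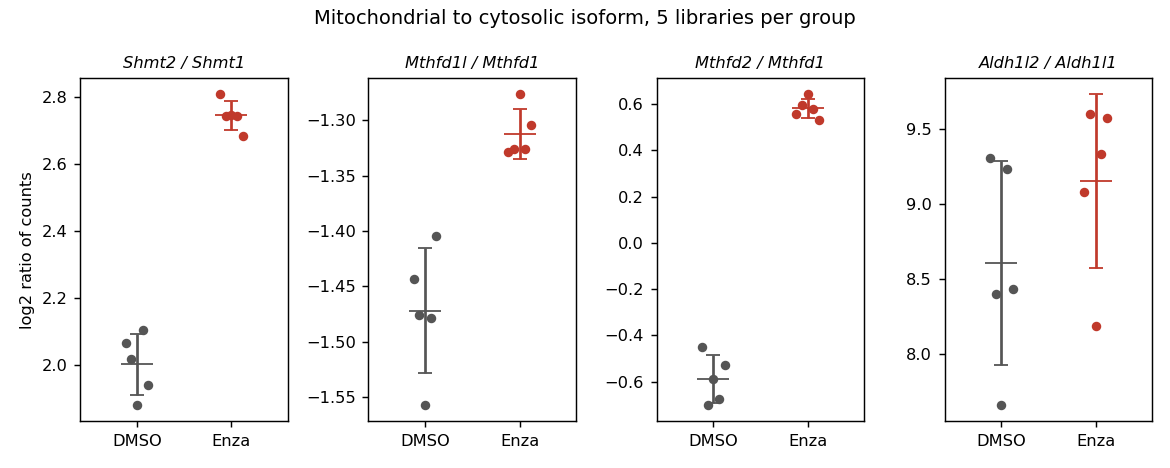
Log2 ratio of the counts of each mitochondrial gene to its cytosolic counterpart in every library, with the mean and SD of 5 libraries per group; each panel has its own axis. The groups are apart in the first 3 panels and overlap for Aldh1l2 to Aldh1l1, whose SD of 0.682 in DMSO is the widest.

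Levels were compared between genes as CPM per kilobase of annotated exon. In DMSO, Psat1 was highest at 69.8 ± 1.8, followed by Phgdh at 60 ± 2.39, Shmt2 at 59.3 ± 1.51 and Mthfd1 at 56.6 ± 1.33 CPM per kilobase. Neighbours among the last 3 overlapped between libraries. Mthfd2 at 48 ± 2.64, Aldh1l2 at 24.2 ± 0.447, Mthfd1l at 20.4 ± 0.661, Shmt1 at 11.9 ± 0.814 and Psph at 8.15 ± 0.562 CPM per kilobase came next, none overlapping its neighbour. Aldh1l1, at 0.11 ± 0.0522 CPM per kilobase, was far below all others.

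In enzalutamide the order of these per-length levels was different. Phgdh was highest at 116 ± 5.93 CPM per kilobase, above Shmt2 at 94.2 ± 4.38, Psat1 at 89.7 ± 3.14 and Mthfd2 at 89 ± 1.99, whose libraries overlapped. Aldh1l2, at 54.4 ± 1.77 CPM per kilobase, had passed Mthfd1, at 46.7 ± 0.734, and Psph, at 15.8 ± 0.894, had passed Shmt1, at 11.2 ± 0.473. The order depends on the length used. With the longest coding transcript in place of all exons, Shmt2 and Mthfd2 came after Psat1 in DMSO, at 80.5 and 80.2 CPM per kilobase, with Phgdh at 78.8, and in enzalutamide Mthfd2 came after Phgdh, at 149 and 153 CPM per kilobase. By that length Psph was already above Shmt1 in DMSO, at 20.4 and 16.1 CPM per kilobase, and in enzalutamide it was also above Mthfd1l, at 39.4 and 22.6 CPM per kilobase.

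Summed per length, the 4 mitochondrial folate genes stood at 152 ± 1.43 CPM per kilobase in DMSO and 256 ± 4.49 in enzalutamide, and the 3 cytosolic ones at 68.6 ± 1.52 and 58.1 ± 0.952 CPM per kilobase. The mitochondrial share of the 7 folate genes' level was thus 68.9 ± 0.638% in DMSO, between 68.3 and 69.8%, and 81.5 ± 0.266% in enzalutamide, between 81.1 and 81.9%. The 3 serine synthesis genes summed to 138 ± 3.95 and 222 ± 9.21 CPM per kilobase. These sums are descriptions of the chosen genes and carry no test.

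**Figure D3:**
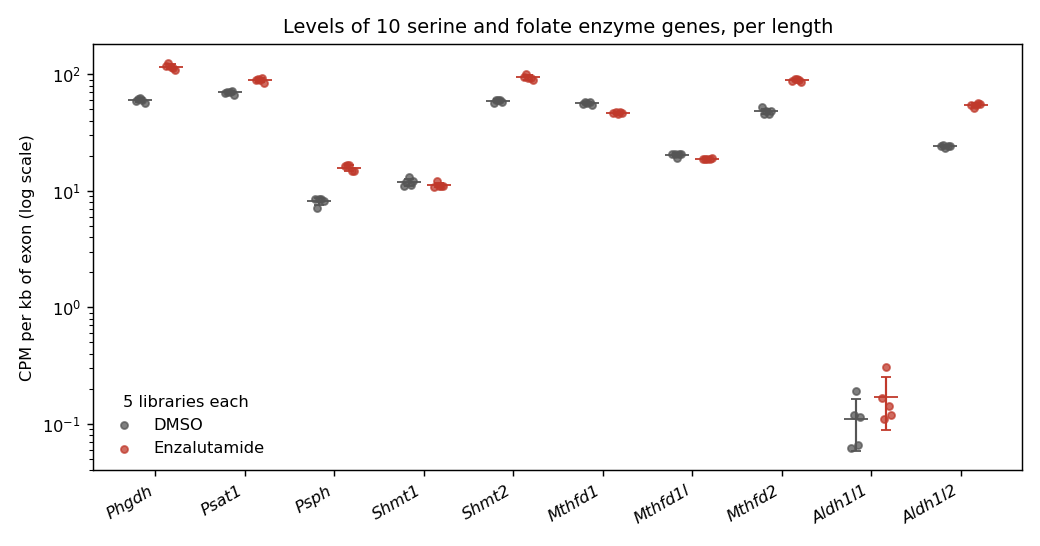
Level of each member in every library as CPM per kilobase of annotated exon, on a log axis, with the mean and SD of 5 libraries per group (grey DMSO, red enzalutamide). Aldh1l1 lies near 0.11 and 0.169, and the other members lie between 8.15 and 116 in the group means.

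Genes of routes that supply or use the same one-carbon units were examined in 6 lists, of which 52 genes of the count table are reported and 43 could be tested. Of these 43 genes 13 rose, 11 fell and 19 did not pass, with a median log2 fold change of 0.020, where 19% of all genes tested were higher and 18.8% lower. Each list holds at most 14 tested genes, so its counts are a description beside those shares. Transport and use of serine and glycine held the largest rises, with 6 of 14 tested members higher and 1 lower (median 0.22). Slc6a9, the glycine transporter GlyT1, rose from 9.44 ± 0.724 to 47.2 ± 2.8 CPM (log2 fold change 2.32). The neutral amino acid carriers Slc1a4 and Slc1a5 rose from 70 ± 0.437 to 139 ± 4.88 CPM and from 92.2 ± 1.6 to 171 ± 6.12 CPM. Sfxn3, a member of the sideroflexin family of mitochondrial carriers, rose with a log2 fold change of 0.32. Sfxn1, which brings serine into mitochondria, had 115 ± 3.46 CPM without and 119 ± 2.32 CPM with the drug and did not pass (adjusted p = 0.257); it was named for this role after its value was seen.

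The glycine cleavage system, a mitochondrial complex that takes a one-carbon unit from glycine, had 1 of 4 members higher and 1 lower (median -0.12). Amt, its aminomethyltransferase, rose from 9.69 ± 0.591 to 14.3 ± 1.52 CPM, and Gcsh, its lipoyl carrier, fell from 82.6 ± 3.29 to 69.3 ± 4.9 CPM. In the list of folate uptake, storage and reduction 3 of 8 members rose and 1 fell (median 0.20). Slc19a1, the reduced folate carrier, rose from 22.7 ± 1.55 to 27.1 ± 1.59 CPM (log2 fold change 0.26), and Ggh, which trims folate polyglutamates, had the same log2 fold change of 0.26. Mthfs, which returns 5-formyltetrahydrofolate to use, had 0.42 (adjusted p = 0.0493) but lost the call when any 1 of DMSO libraries 1, 2, 4 and 5 or enzalutamide libraries 1, 2, 4 and 5 was left out (0.0596 to 0.113). The gene that fell was Slc25a32, the mitochondrial folate carrier (log2 fold change -0.19, adjusted p = 0.0209), and its call was lost without DMSO library 2 (0.0509), enzalutamide library 1 (0.0607) or enzalutamide library 2 (0.0565).

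Among the genes of thymidylate and purine synthesis 5 of 7 were lower and 1 higher (median log2 fold change -0.15), beside 18.8% lower and 19% higher over all genes. Tyms, thymidylate synthase, had a log2 fold change of -0.42 (adjusted p = 5.96e-08). The purine synthesis genes Ppat, Gart and Atic, for the first step and for the steps that take formyl groups, had -0.27, -0.15 and -0.12. Of these 7 genes Tyms, Gart and Atic encode enzymes that take a folate-bound unit, whereas Ppat, Pfas, Paics and Adsl act at other steps of purine synthesis. Pfas was the one that rose and Adsl the other that fell (log2 fold changes 0.22 and -0.15), both named after their values were seen. In the methionine cycle 3 of 8 members fell and 1 rose (median -0.049). Ahcy, which clears S-adenosylhomocysteine, and Mat2a, which makes S-adenosylmethionine, had log2 fold changes of -0.16 and -0.12. Mtr, methionine synthase, had -0.19 (adjusted p = 0.0179, and 0.0509 without DMSO library 4). The riser was Ahcyl2, a relative of Ahcy (0.34). In the list of choline-derived units 1 of 2 tested genes rose, the sarcosine dehydrogenase gene Sardh (0.19, adjusted p = 0.0179), which lost the call without DMSO library 1 (0.0507) or enzalutamide library 1 (0.0555).

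**Figure D4:**
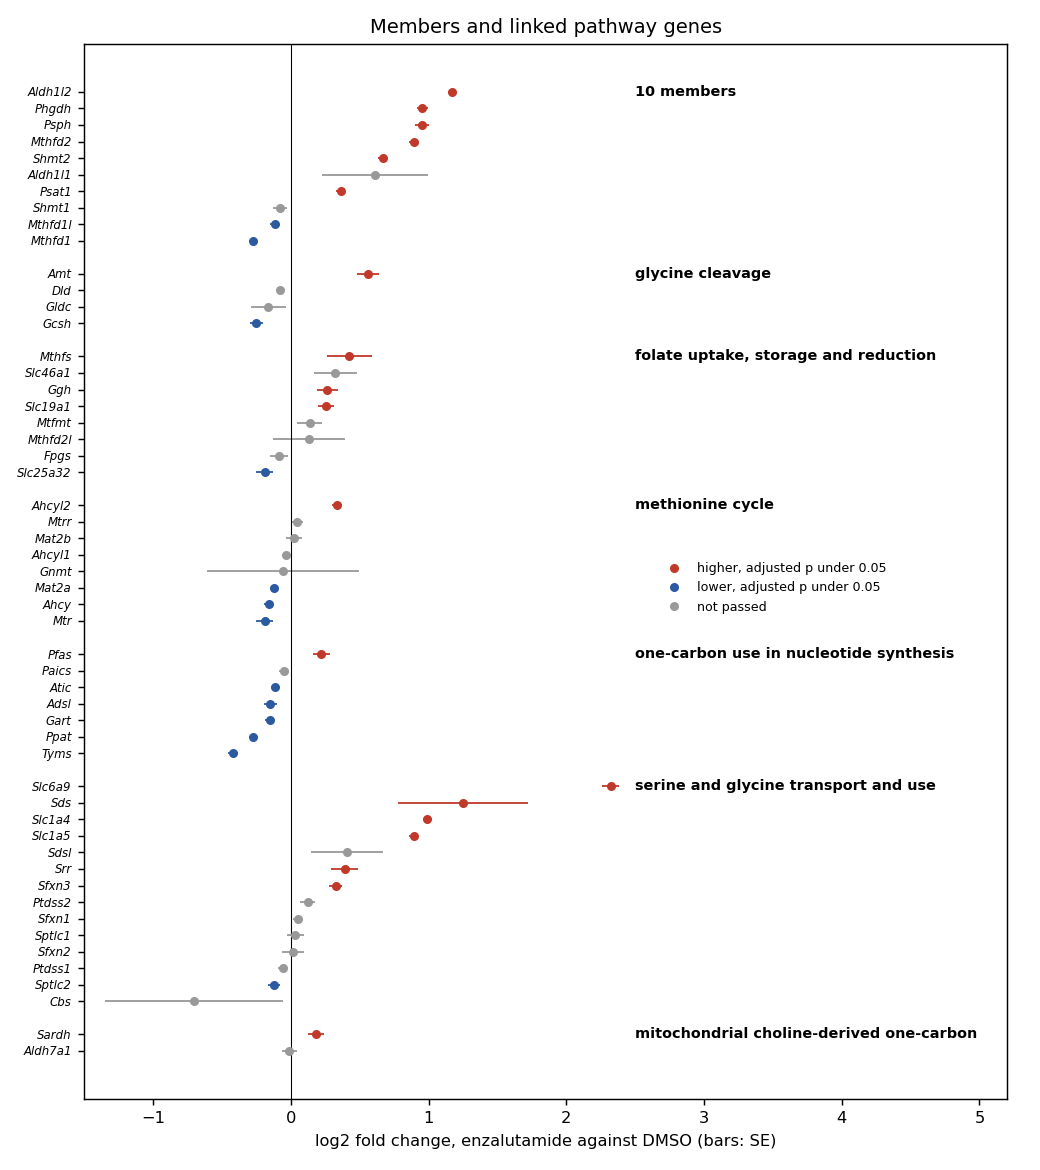
Log2 fold change of each member and of each reported gene tested in the 6 linked lists, with bars of 1 SE; red and blue points are higher and lower at an adjusted p under 0.05, grey points did not pass. Slc6a9 at 2.32 lies furthest to the right, Aldh1l2 at 1.17 leads the members, and 5 of 7 nucleotide synthesis genes lie on the left in blue.

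Promoter windows, from 250 bases before to 50 bases after the start of the transcript, were taken from RefSeq on GRCm38.p6 for 9 members (10 windows, as Psat1 has more than 1 start); Aldh1l2 had no entry. They were searched on both strands for TGATGCAA and the looser TGATGNAA, the core of the composite element that ATF4 binds, and for the E-box CACGTG. None of these occurred in the 10 windows. Over all 32851 windows 0.895% held TGATGCAA, 3.97% held TGATGNAA (which includes the former) and 7.15% held CACGTG. A binding site outside these windows or with other letters would not be seen. The CCAAT box, added after the windows had been read, occurred in 7 of the 10 windows, beside 37.4% of all windows.

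The window of Mthfd2 and 1 of the 2 windows of Psat1 held 3 CCAAT boxes each, a number that 3.37% of all windows reach, and the other Psat1 window held none. The windows of Phgdh and Psph, which rose, and of Aldh1l1, which did not pass, held 2 each. Those of Mthfd1, which fell, and Shmt1, which did not pass, held 1 each, and those of Shmt2, which rose, and Mthfd1l, which fell, held none. The box was thus present in members that rose, fell or did not pass. The 4 windows with the most boxes or, other than the second of Psat1, with none are shown. They lie at chr19:15925010-15925309, chr6:83317555-83317854 and chr10:127522395-127522694, all on the minus strand, and at chr10:3972825-3973124 on the plus strand. Capitals mark CCAAT or its reverse complement ATTGG. The matches are a description of sequence only.
Psat1: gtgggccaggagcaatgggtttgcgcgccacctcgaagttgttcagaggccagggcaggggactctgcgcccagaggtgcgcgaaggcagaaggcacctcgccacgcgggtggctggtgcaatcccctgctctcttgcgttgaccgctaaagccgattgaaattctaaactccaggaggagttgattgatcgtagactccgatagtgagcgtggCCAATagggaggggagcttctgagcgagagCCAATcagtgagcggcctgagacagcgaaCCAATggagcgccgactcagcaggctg
Mthfd2: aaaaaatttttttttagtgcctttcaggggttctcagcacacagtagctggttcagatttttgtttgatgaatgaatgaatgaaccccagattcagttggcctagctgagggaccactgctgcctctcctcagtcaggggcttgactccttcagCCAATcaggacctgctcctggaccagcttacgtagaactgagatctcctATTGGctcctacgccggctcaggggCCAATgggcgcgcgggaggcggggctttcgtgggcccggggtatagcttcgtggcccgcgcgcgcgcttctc
Shmt2: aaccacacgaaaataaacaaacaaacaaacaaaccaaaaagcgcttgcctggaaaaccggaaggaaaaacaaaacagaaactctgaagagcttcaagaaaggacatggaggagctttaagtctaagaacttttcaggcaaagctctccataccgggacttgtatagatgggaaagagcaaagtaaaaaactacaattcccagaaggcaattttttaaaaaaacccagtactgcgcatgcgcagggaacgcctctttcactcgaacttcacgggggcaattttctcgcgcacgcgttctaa
Mthfd1l: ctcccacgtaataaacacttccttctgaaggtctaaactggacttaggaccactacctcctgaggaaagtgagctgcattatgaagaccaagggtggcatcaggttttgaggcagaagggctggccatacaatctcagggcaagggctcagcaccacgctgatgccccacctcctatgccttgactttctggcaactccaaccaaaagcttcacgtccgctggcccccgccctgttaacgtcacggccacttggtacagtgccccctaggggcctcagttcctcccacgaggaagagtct

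For 4 members that rose, the genes with the most similar pattern were taken from 10187 genes with a mean of at least 5 CPM, by Pearson's r of log2 CPM over the 10 libraries. Because these libraries form 2 groups that share the treatment difference, r includes that difference and no p is given. Psat1 was closest to Uap1l1 (r = 0.993), the seryl-tRNA synthetase gene Sars (0.991) and Atf4 (0.990). Shmt2 was closest to the progranulin gene Grn, the asparagine synthetase gene Asns and the signalling ligand gene Wnt4, each with r = 0.997. Mthfd2 was closest to the asparaginyl-tRNA synthetase gene Nars (0.997), the chromatin factor gene Phf10 (0.997) and the proline synthesis gene Pycr1 (0.995). Aldh1l2 was closest to the serine and alanine carrier gene Slc1a4 (0.999), the glutamyl-prolyl-tRNA synthetase gene Eprs (0.997) and the lipoprotein receptor gene Vldlr (0.996). The log2 fold changes of these 12 genes lay between 0.40 and 1.19.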

How the data were processed

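RNA was captured by its poly-A tail and sequenced from 10 libraries, placed in groups by their titles. The tools HISAT2, StringTie and DESeq2 and the build mm10 appear in the submitters' processing notes, with no version or role. The authors deposited whole-number counts per Ensembl gene (33212 rows), the basis of every test, and a signal that equals the count divided by 1 factor per library (within 0.01 in all 20039 genes matched by a unique symbol), used as an alternative. How strand and multiply mapped reads were handled is not given in the sources used.

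The main test ran in edgeR 4.0.16 (R 4.3.3; limma 3.58.1 for alternatives): filterByExpr with groups, which left 14156 genes, trimmed mean of M values, quasi-likelihood test without covariates, Benjamini-Hochberg adjustment, threshold 0.05. SE is the absolute log2 fold change over the square root of F, and 95% intervals use the t distribution. Isoform ratios used counts plus 0.5. Positions and lengths came from GENCODE M21 on GRCm38/mm10 (96.5% of identifiers found). The pipeline was tested on simulated data. Libraries of a group differed beyond counting noise (chi-square over its degrees of freedom 9.23 to 37.3). The labels call them biological replicates without naming separate cultures, so p-values reflect only how much these libraries varied, which may be technical. The labels state no covariate, so the replicate number was used only in an alternative. Same-numbered libraries of the 2 groups deviated together with r between -0.00836 and 0.0564. By this r, DMSO libraries 2, 3, 4 and 5 were each closest to the enzalutamide library of the same number. In the other direction this held for enzalutamide libraries 3 and 5 only.

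The members and the linked lists were chosen with earlier results of these data known. The rule for named genes took all 10 members, up to 4 passing genes with the lowest adjusted p in each linked list, and the 3 nearest patterns of Psat1, Shmt2, Mthfd2 and Aldh1l2. Results for some genes of the linked lists are not reported here and stay out of the lists' counts. Alternatives were relative log expression factors, total-count scaling, no filter, a mean CPM of at least 1, a replicate block, DESeq2 1.42.0, limma-voom, limma-trend on the deposited signal plus 1 or 8, removal of GC and length trends, and leaving out each library. The coding transcript length was added after the data were seen.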

Additional observations from a re-analysis of the deposited data

Results flagged for a closer look

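In 5 of the 28 sets of 5 libraries examined (10 members and 4 ratios, in each group) 1 library lay further from the rest than Dixon's 95% limit allows; chance alone does so in about 1 of 20 sets. Psph was 31.03 CPM in DMSO library 2, against 35.6 to 36.8 CPM in the other 4, and without that library its log2 fold change was 0.91. Shmt1 was 46.87 CPM in enzalutamide library 2, against 42.2 to 43.1 CPM, and its log2 fold change without it was -0.10 (adjusted p = 0.123). Mthfd1l was 85.45 CPM in DMSO library 3, against 91.3 to 92.6 CPM, and its log2 fold change without it was -0.14 (adjusted p = 0.00327). Aldh1l1 was 1.392 CPM in enzalutamide library 3, against 0.491 to 0.745 CPM, and its log2 fold change of 0.61 became 0.28 without it. Aldh1l2 was 175.8 CPM in DMSO library 3, against 182 to 184 CPM, and its log2 fold change without it was 1.16.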

How the results depend on the processing

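Under 20 alternatives 6 members were higher each time and 2 lower in all but 1. With total-count scaling 1 member was lower, since Mthfd1l had a log2 fold change of -0.084 (adjusted p = 0.0534); that scaling moved the median of all genes to 0.041 and made 60.7% of calls higher, beside 50.3%. Its adjusted p was between 0.00119 and 0.0534 over the alternatives. No member changed direction. Aldh1l1 was not tested at a mean CPM of at least 1, and its log2 fold change ran from 0.28 without enzalutamide library 3 to 0.90 without DMSO library 3, passing in neither. With the replicate number as a replicate block in edgeR the members' counts stayed at 6 higher and 2 lower, with Mthfd1l at -0.12 (adjusted p = 0.0164). In the ratios, pairing by replicate block gave 0.74 for Shmt2 to Shmt1, 0.16 for Mthfd1l to Mthfd1 and 1.17 for Mthfd2 to Mthfd1, each with an exact sign-flip p of 0.0625 (0.0833 adjusted), the smallest that 5 pairs can give, so this test cannot pass. The linked genes numbered 10 to 15 higher and 8 to 12 lower. Slc25a32 did not pass with total-count scaling (adjusted p = 0.0601), Mthfs with relative log expression factors (0.0509) or the replicate block (0.09), and Sardh with GC and length trends removed (0.0507). Depth limits only Aldh1l1 among the members.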
